A study of Apis mellifera with 18 samples.

Results

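Here 18 genes of the honeybee queen brain are described, chosen because every brain pool from queens that received semen or seminal fluid held more of their RNA than every control pool, in both of 2 experiments. They are 18 of 15314 gene models, and 7 of them carry a name. The largest rise belonged to GB50362, a gene model of low level without a name here. The highest levels among the named genes belonged to an unconventional prefoldin RPB5 interactor 1-like gene and to a gene for a J domain-containing protein. By their names, the others code for a tyrosine phosphatase, an adrenergic-type receptor, a monocarboxylate transporter, a toxin-like peptide and the thioesterase-family protein THEM6.

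Queens of Apis mellifera ligustica were reared from larvae grafted from a single colony, so the queens came from 1 mother colony. They were put under CO2 for 1 min at 4 days after hatching, were treated 1 day later again under CO2, and gave their brains, optic lobes included, 24 h after that. A library was made from a pool of 3 brains, and each of the 6 groups had 3 libraries, called A, B and C, 18 in all. In RNA-seq Experiment 1 the groups were mock insemination, in which the instrument was used without injecting fluid, 6 µL of semen, and 6 µL of seminal fluid freed of sperm. In RNA-seq Experiment 2 they were 6 µL of Hayes saline, 6 µL of semen and 6 µL of seminal fluid. Every group therefore shares the CO2 narcosis and the handling. Semen was pooled from several drones and the seminal fluid came from thawed stocks of many drones. Mock insemination and saline were each used in 1 experiment, so the kind of control cannot be told apart from the experiment.

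The genes were chosen on CPM, the count of a gene scaled so that the counts assigned to genes add up to the same total in every library. A gene had to average at least 1 CPM over the 18 libraries, and its lowest value among the 6 inseminated libraries (semen and seminal fluid) had to lie above its highest value among the 3 controls, in each experiment. Of 10487 genes at or above that floor, 149 met the condition in Experiment 1 (1.42% of those genes), 130 in Experiment 2 (1.24%) and 38 in both (0.362%), which is 25.5% of the first list and 29.2% of the second. Of the 38, 20 belonged to a list of 23 genes set aside beforehand, all of them in the study's own list of 37 consistently changed genes, and the other 18 are described here. In the opposite direction, 11 genes were lower in every inseminated library of both experiments. Because these values chose the genes, the rise against the controls is given as a description and without a test.

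All 7 named genes are also in the study's list of 37, and their names come from it. A J domain is the part by which DnaJ-type co-chaperones bind and stimulate Hsp70, which folds proteins. In mammals, the phosphatase PTPN5, also called STEP, acts in neurons on MAP kinases and glutamate receptors, and the transporter MCT4 carries lactate out of cells that run glycolysis. Insects use octopamine and tyramine where vertebrates use noradrenaline, and receptors related to the alpha-2 adrenergic receptors of vertebrates bind octopamine in insects. Agatoxins are small cysteine-rich peptides of spider venom, and insects carry secreted peptides of related sequence. In mammals, URI is a prefoldin-family protein that binds a subunit shared by the RNA polymerases, while THEM6 has a thioesterase-like fold and a role that is little known. In whole-brain RNA, a gene that changes its level in each cell and a change in the share of the cells that express it cannot be told apart.

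GB50362 had the largest rise. In Experiment 1 it stood at 0.922, 0.676 and 0.616 CPM in the mock libraries A, B and C, at 2.28, 2.17 and 1.64 CPM with semen, and at 1.95, 2.46 and 1.93 CPM with seminal fluid. In Experiment 2 it stood at 1.48, 1.34 and 0.948 CPM with saline, at 2.03, 2.50 and 3.36 CPM with semen, and at 2.80, 4.27 and 2.33 CPM with seminal fluid. The lowest inseminated library of either experiment, at 1.64 CPM, was still above the highest control of either, at 1.48 CPM. On the log2 scale of the fitted model, the 4 rises of GB50362 (semen and seminal fluid, in each experiment) were 1.09 to 1.62, or 2.13-fold to 3.07-fold. These values rest on few reads, 18 to 52 in the control libraries and 62 to 154 in the inseminated ones.

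The J domain-containing gene (GB41376) had the widest gap among the abundant genes. Its levels in Experiment 1 were 240 CPM, 223 CPM and 168 CPM after mock insemination, 379, 341 and 332 CPM with semen and 315, 345 and 353 CPM with seminal fluid. In Experiment 2 they were 191, 205 and 216 CPM with saline, 317, 300.0 and 287 CPM with semen, and 309, 362 and 285 CPM with seminal fluid. The controls of both experiments ended at 240 CPM and the inseminated libraries of both began at 285 CPM. On library totals, control and inseminated libraries therefore did not overlap even across experiments. With the TMM scaling described below, the mock libraries A and B reached into the inseminated libraries of Experiment 2. The mean with mock insemination was 210 ± 37.9 CPM (SD, n = 3) and that with semen 351 ± 25.2 CPM. Its 4 rises were 0.58 to 0.79 on the log2 scale, with standard errors of 0.08 in Experiment 2 and 0.14 in Experiment 1.

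The U8-agatoxin-Ao1a-like gene (GB50733) is named for likeness to a spider toxin, and its protein was not examined here. It stood at 135, 120 and 94.2 CPM after mock insemination, at 196, 185 and 175 CPM with semen and at 188, 183 and 168 CPM with seminal fluid. In Experiment 2 it stood at 130, 134 and 137 CPM with saline, at 199, 207 and 257 CPM with semen, and at 231, 225 and 166 CPM with seminal fluid. Here too the highest control of either experiment, at 137 CPM, lay below the lowest inseminated library, at 166 CPM. One other gene separated in this way across both experiments, an unnamed one at a mean of 9.01 CPM. Its gap was narrow, from 7.84 CPM in the highest control to 8.07 CPM in the lowest inseminated library. With the TMM scaling described below, the mock libraries A and C reached into the inseminated libraries of Experiment 2 for this gene. For GB50733, mock library A did. The other 14 separated within each experiment, but some of their controls reached into the inseminated libraries of the other experiment. Separation across both experiments was not counted over all genes at or above the floor, nor over all genes that met the rule. Whether it is frequent among the genes described here therefore cannot be judged.

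The genes named as a receptor, a transporter and a phosphatase had mean rises close to that of GB50733. The alpha-2A adrenergic receptor gene (GB50585) was low, at 5.96, 7.51 and 4.84 CPM after mock insemination, 9.02, 8.02 and 12.1 CPM with semen, and 7.63, 10.7 and 10.5 CPM with seminal fluid. In Experiment 2 it was at 5.11, 7.37 and 9.92 CPM with saline, 12.8, 11.2 and 12.4 CPM with semen, and 13.3, 16.8 and 10.1 CPM with seminal fluid. The groups of an experiment touched, since the seminal fluid library C of Experiment 2 exceeded the saline library C by a factor of only 1.02. Its 4 rises were 0.69 to 0.81 on the log2 scale, with standard errors of 0.19 to 0.21.

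The monocarboxylate transporter 4-like gene (GB53682) stood at 40.4, 41.5 and 27.0 CPM after mock insemination, at 54.6, 51.0 and 58.8 CPM with semen and at 50.6, 44.1 and 58.7 CPM with seminal fluid. In Experiment 2 its levels were 36.2, 43.4 and 54.8 CPM with saline, 70.5, 67.0 and 85.4 CPM with semen and 88.4, 107 and 73.4 CPM with seminal fluid. The saline library C, at 54.8 CPM, was above 4 of the 6 inseminated libraries of Experiment 1, so that this gene separated within an experiment only. Its rises were 0.63 and 0.60 on the log2 scale in Experiment 1 and 0.76 and 0.96 in Experiment 2, each for semen and then seminal fluid, with standard errors of 0.16.

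The tyrosine-phosphatase non-receptor type 5-like gene (GB49390) varied more between libraries of a group. It was at 36.1, 35.2 and 27.6 CPM after mock insemination, 43.5, 65.1 and 61.3 CPM with semen and 41.9, 48.4 and 82.7 CPM with seminal fluid. In Experiment 2 it was at 47.3, 56.4 and 60.9 CPM with saline, 76.8, 79.4 and 90.3 CPM with semen and 86.0, 93.9 and 69.3 CPM with seminal fluid. The seminal fluid library C of Experiment 1 was the highest of its group by a wide step. Without it, the rise with seminal fluid in that experiment was 0.60 on the log2 scale, against 0.89 with it.

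**Figure D1:**
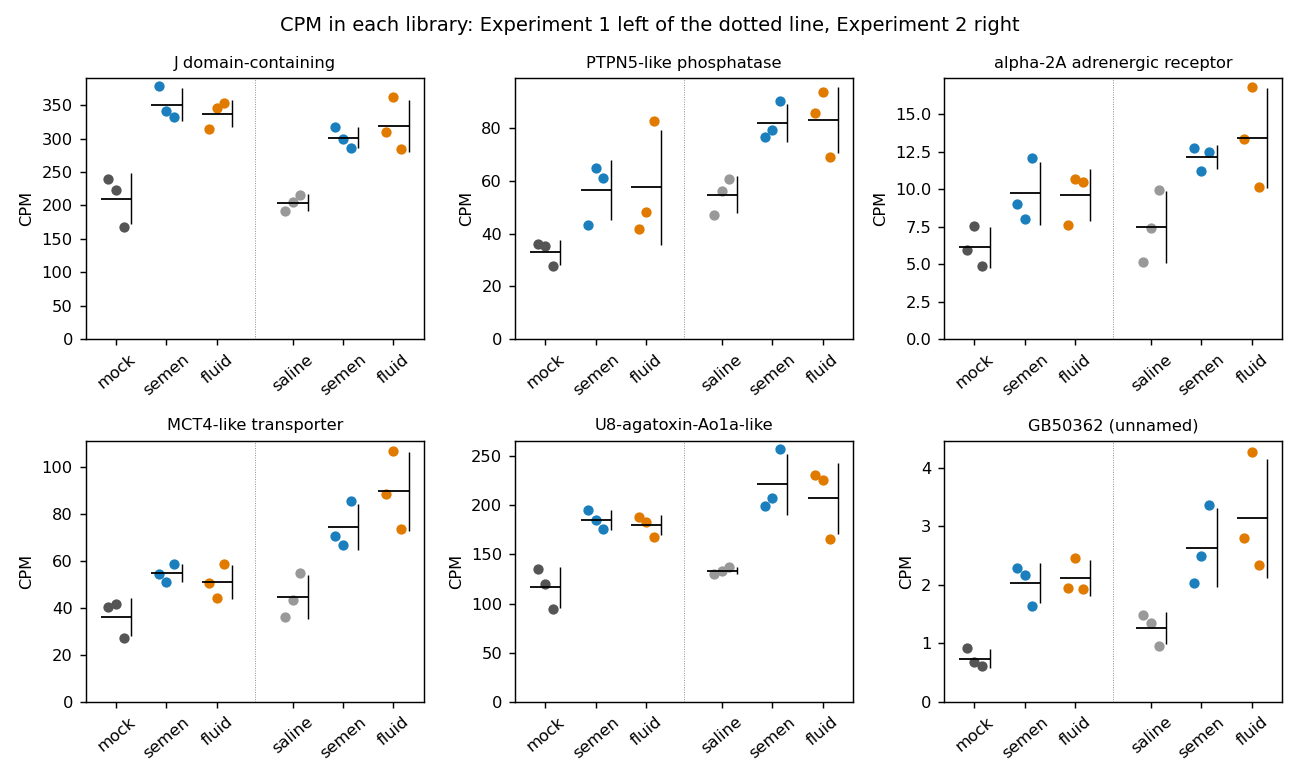
CPM (vertical axis, from 0) of 6 genes in each of the 18 libraries (points), by group, with the group mean (horizontal line) and 1 SD on either side (vertical line), n = 3. For the J domain-containing gene, the U8-agatoxin-Ao1a-like gene and GB50362, all 12 inseminated libraries lie above all 6 controls of both experiments on this scale. Of these, only GB50362 keeps the separation across experiments with the TMM scaling described below.

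The remaining 2 named genes rose less. The prefoldin RPB5 interactor gene (GB49857) ran from 270 to 371 CPM in the mock libraries and from 407 to 497 CPM in the 6 inseminated libraries of Experiment 1, then from 379 to 436 CPM with saline and from 456 to 611 CPM in the inseminated libraries of Experiment 2. Its 4 rises were 0.34 to 0.49 on the log2 scale. THEM6 (GB55392) ran from 34.6 to 44.4 CPM in the mock libraries and from 44.9 to 64.7 CPM after insemination, and from 43.3 to 49.3 CPM with saline and 54.5 to 75.0 CPM after insemination. Its rises were 0.44 to 0.61, and in Experiment 1 the gap between the groups was 1.01-fold.

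Of the 18 genes, 11 have no name here. The most abundant of all 18 is one of them, GB54724, at a mean of 461 CPM. In Experiment 1 it was at 381 to 531 CPM in the mock libraries and at 537 to 630 CPM after insemination, and in Experiment 2 at 279 to 327 CPM with saline and at 333 to 456 CPM after insemination. Its 4 rises were 0.32 to 0.47 on the log2 scale. The other 9 besides GB50362 had mean levels of 3.61 to 165 CPM and mean rises of 0.28 to 0.63. The least of these rises was that of a gene at 96.7 CPM, whose controls and inseminated libraries in Experiment 1 were 0.432% apart.

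The gaps were narrow for most of the genes. The lowest inseminated CPM divided by the highest control CPM, taking the smaller value of the 2 experiments, was 1.00 to 1.37 with a median of 1.02. It was over 1.1 for 5 of the 18, which were GB50362 at 1.37, the J domain-containing gene at 1.31, the U8-agatoxin-Ao1a-like gene at 1.21, the phosphatase gene at 1.14 and an unnamed gene at 1.11. The 3 genes just inside the rule, all unnamed, had ratios of 1.004, 1.005 and 1.008. The 3 just outside it had ratios of 0.9997, 0.994 and 0.993, the middle one being the uncharacterized protein LOC100577121.

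**Figure D2:**
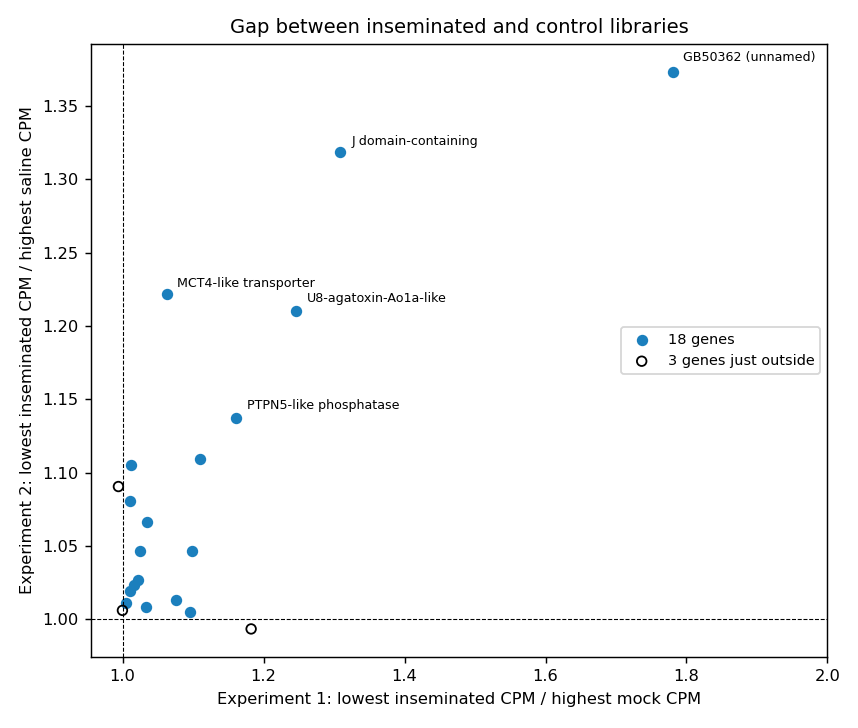
Lowest CPM of the 6 inseminated libraries divided by the highest CPM of the 3 controls, in Experiment 1 (horizontal) and Experiment 2 (vertical), with 1 point for each of the 18 genes and open points for the 3 genes just outside the rule. The dashed lines mark a ratio of 1, and most of the genes lie close to them, while GB50362 and the J domain-containing gene lie farthest out.

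A few libraries set these gaps. In Experiment 2 the seminal fluid library C was the lowest inseminated library for 12 of the 18 genes. In Experiment 1 the mock library A was the highest control for 11 of them, and the seminal fluid library A the lowest inseminated library for 7. Relative to the controls of the experiment, the median of the 18 genes was 0.33 on the log2 scale in the seminal fluid library C of Experiment 2 and 0.39 to 0.63 in the other 11 inseminated libraries, against −0.23 to 0.13 in the 6 controls. On this scale the rule itself sets each inseminated median above the control medians of its experiment, so nothing can be read from that order. With totals adjusted by TMM, a scaling that sets aside the genes that differ most between libraries, the median was 0.43 in the seminal fluid library C of Experiment 2 and 0.41 to 0.72 in the other inseminated libraries.

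**Figure D3:**
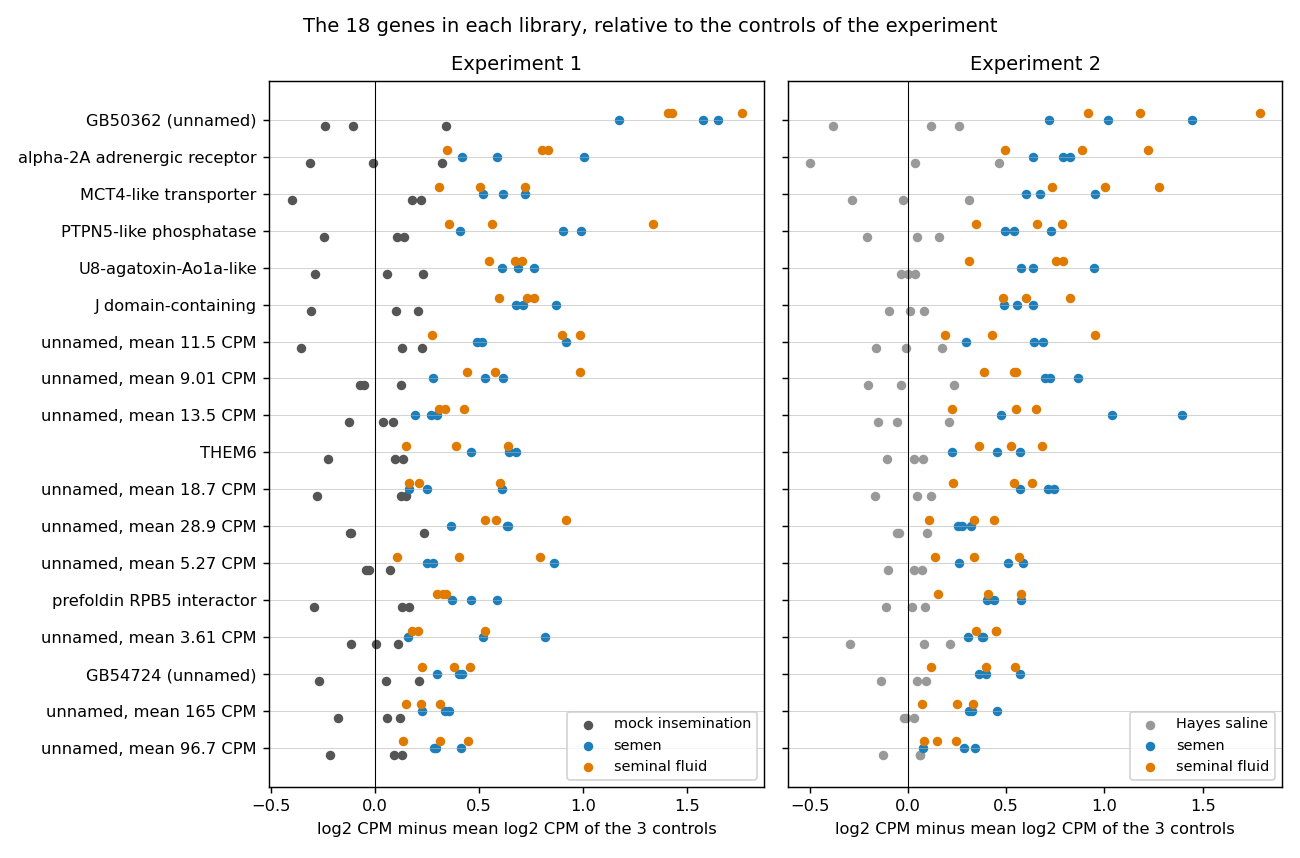
Level of each of the 18 genes in each library, as log2 CPM minus the mean log2 CPM of the 3 controls of the same experiment (horizontal axis), ordered by mean rise. Each row holds 3 control, 3 semen and 3 seminal fluid points per experiment. Within an experiment, as the rule requires, all inseminated points lie right of all control points, by a step that is small for most genes.

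Some facts of the libraries move with these groups. Totals were 26636844 to 51745752 counts per library, and the mock libraries (26636844 to 35725911) were below all 3 semen libraries of Experiment 1 (37784474 to 51745752). The seminal fluid libraries of Experiment 1 (34488100 to 40473944) overlapped the mock libraries. In Experiment 2 the saline totals (31138373 to 38790156) overlapped those with semen (32041040 to 41935660) and with seminal fluid (32912879 to 44633262). One gene, GB49544, alone held between 0.840% and 9.96% of all counts assigned to genes, and 8.90% in the seminal fluid library C of Experiment 2 against 0.840% to 1.40% in the other 5 inseminated libraries and 2.20% to 4.74% in the saline libraries of that experiment, and the CPM of the other genes is relative to a total that includes it. With that gene left out of the totals, 27 genes outside the list of 23 met the rule, 15 of the 18 among them. It is also the only gene matched on the list of fat body markers, where it was entered by its identifier, and its part in the rise of the 18 genes was not tested. Of the photoreceptor markers, 4 could be matched (norpA, inaD, ninaC and chaoptin, none of them among the 18, and 2 of them in the excluded list, chosen by the study on these samples); their summed level was 279 to 365 CPM in the mock libraries and 384 to 490 CPM in the inseminated libraries of Experiment 1, and 395 to 541 CPM with saline and 575 to 701 CPM in the inseminated libraries of Experiment 2. The 2 excluded markers met the rule themselves, so nothing can be read from the order of this sum. The sum of 12 phototransduction genes named by the study ran from 2620 to 3068 CPM in the mock libraries. It overlapped 2940 to 3157 CPM with semen and 2949 to 3400 CPM with seminal fluid in Experiment 1. In Experiment 2 it was 2906 to 3500 CPM with saline, 3498 to 3706 CPM with semen and 3538.5 to 4058.5 CPM with seminal fluid. The part of either sum in the rise of the 18 genes was not tested. No name on the lists of neuron, glia, muscle, gland or haemocyte markers could be matched to a gene model, so the tissue was not checked against them.

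In the model of each experiment, the median rise over the 18 genes was 0.55 on the log2 scale with semen and 0.57 with seminal fluid in Experiment 1. In Experiment 2 it was 0.57 and 0.44. The median over all genes tested was between −0.015 and −0.006 in these 4 contrasts. At a false discovery rate of 10%, edgeR called 0 of the 18 higher with semen in Experiment 1 (background 0.128% of all genes tested), 1 with seminal fluid in Experiment 1 (background 0.153%), 4 with semen in Experiment 2 (0.303%) and 3 with seminal fluid in Experiment 2 (0.353%). Nothing can be read from these counts, since the genes were chosen on the same contrasts. None of the 18 was called in all 4 contrasts, 2 were called in 2 of them, which were the J domain-containing and phosphatase genes in both contrasts of Experiment 2, 4 in 1 contrast, and 12 in none. With library totals in place of TMM, 0, 0, 0 and 2 were called, against 0.111%, 0.0595%, 0.16% and 0.252% of all genes tested.

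Seminal fluid was also set against semen, a contrast that the choice of the genes did not use directly. This contrast does not isolate sperm. The semen was fresh and came from several drones, while the seminal fluid was centrifuged, frozen, thawed and pooled from many drones. Equal volumes were injected, so the amount of seminal fluid differed as well. The part of sperm alone was therefore not tested. The rule did require both groups to lie above the controls, so genes that rose with only semen or only seminal fluid were left out. Small differences between these groups are therefore favoured by the choice. In Experiment 1, none of the 18 passed the test. Their log2 fold changes for seminal fluid over semen were −0.12 to 0.30 with a median of 0.06, and the lowest adjusted p was 0.920 by edgeR's quasi-likelihood test. None reached an unadjusted p under 0.05. Over all 11761 genes tested, edgeR called 0 and 680 had an unadjusted p under 0.05, while DESeq2 called 1 gene and none of the 18.

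In Experiment 2, again none of the 18 passed, with log2 fold changes of −0.60 to 0.20 and a median of −0.10, 12 of the 18 being lower with seminal fluid. There were 3 with an unadjusted p under 0.05, all unnamed and all lower with seminal fluid, by −0.60 ± 0.22 (SE) for a gene at 13.5 CPM, −0.26 ± 0.12 for one at 18.7 CPM and −0.20 ± 0.08 for one at 165 CPM. The lowest adjusted p was 0.238. edgeR called 1 of 11899 genes, or 0.0084%, and 2209 had an unadjusted p under 0.05. DESeq2 called 831 genes and none of the 18, with a lowest adjusted p of 0.102 among them. Without the semen library B, edgeR called the gene at 13.5 CPM lower with seminal fluid, at −0.83 on the log2 scale and an adjusted p of 0.0863.

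For the J domain-containing gene the 95% interval of seminal fluid minus semen was −0.30 to 0.32 on the log2 scale in Experiment 1 and −0.15 to 0.20 in Experiment 2, while its rise against the controls was 0.58 to 0.79. For the alpha-2A adrenergic receptor gene it was −0.34 to 0.46 and −0.39 to 0.53, and for the transporter gene −0.37 to 0.33 and −0.15 to 0.55. Over the 18 genes, 11 intervals in each experiment lay wholly between −0.5 and 0.5, and the widest spanned 1.22.

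**Figure D4:**
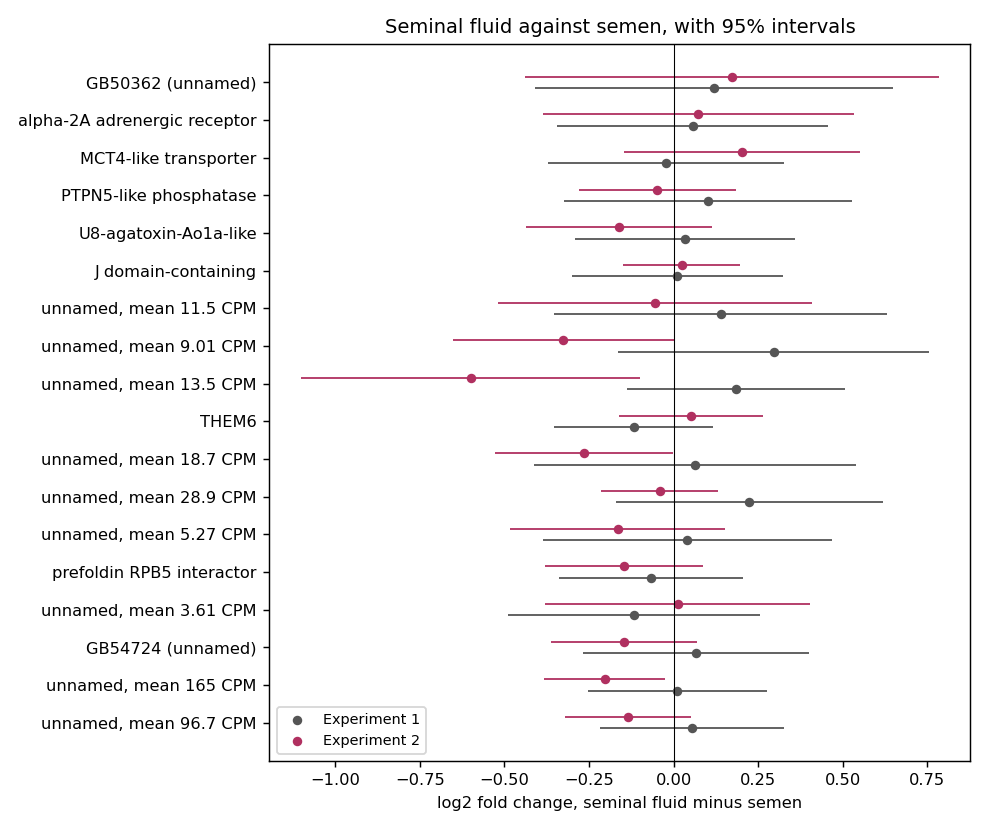
Log2 fold change of seminal fluid over semen (points) with its 95% interval (lines) for each of the 18 genes in Experiment 1 and Experiment 2, from edgeR's fit of the 9 libraries of an experiment. Most intervals include 0; the gene at 13.5 CPM reaches farthest to the left, at −0.60 in Experiment 2.

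The size of the rise was then compared between the experiments. The choice of the genes did not fix this difference, but it required a rise in each experiment. The mean rise of semen and seminal fluid over saline, minus that over mock insemination, was −0.41 to 0.37 on the log2 scale for the 18 genes, with a median of −0.07 against 0.01 over all genes tested. None passed the test, with adjusted p from 0.957 upwards by edgeR's quasi-likelihood test over 12052 genes, of which 1 (0.0083%) was called and 566 had an unadjusted p under 0.05; DESeq2 and limma-voom also called 1 gene and none of the 18. The phosphatase gene had a difference of −0.26 ± 0.20 (SE), the transporter gene 0.24 ± 0.21, and GB50362 −0.38 ± 0.35. Of the 18 differences, 14 were below 0, but with library totals in place of TMM 5 of the 18 turned sign and the median was 0.00.

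Levels themselves differed between the experiments, and here the scaling decided the direction for many of the genes. With TMM, the inseminated libraries of Experiment 2 were lower than those of Experiment 1 for 12 of the 18 genes and higher for none, in a contrast in which 69.8% of all genes tested were called, 33.4% lower and 36.4% higher. With library totals, 5 of the 18 were lower and 8 higher, where 12.4% of all genes tested were called lower and 67.8% higher. TMM factors were 0.711 to 0.915 in Experiment 1 and 1.13 to 1.29 in Experiment 2, and the change of scaling moved the median of all genes tested from 0.02 to 0.58 on the log2 scale. Under both scalings, 5 of the 18, all unnamed, were called lower in Experiment 2, as were 12.4% of all genes tested, GB54724 among them at −1.12 ± 0.10 (SE) with TMM and −0.54 ± 0.09 with library totals.

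In the controls the direction depended on the scaling as well. With saline against mock insemination, 10 of the 18 genes were lower and none higher with TMM, where 50.5% of all genes tested were called, 24% lower and 26.5% higher, and 4 were lower and 5 higher with library totals, where 9.19% of all genes tested were called lower and 59.8% higher. The change of scaling moved the median of all genes tested from 0.04 to 0.54 here. GB54724 was lower with saline by −1.09 ± 0.14 with TMM and −0.59 ± 0.13 with library totals. The J domain-containing gene was lower by −0.54 ± 0.12 with TMM (adjusted p = 0.00224, edgeR's quasi-likelihood test), but stood at −0.04 ± 0.13 with library totals. For the phosphatase gene the values were 0.24 ± 0.17 and 0.74 ± 0.21.

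Within groups, many of the 18 genes varied together. On log2(CPM + 1) with TMM and with the group means removed, the 153 pairs had Pearson r of −0.52 to 0.86 over the 18 libraries, with a median of 0.31, and 43 pairs were above 0.5 while 2 were below −0.5. The mean r was 0.29 over these pairs and 0.01 over all pairs of the 10487 genes. The 18 genes were chosen on library totals of these same libraries. The part of that choice in this difference was not tested. The points of a pair share their libraries and their scaling, and group means were estimated from 3 libraries each. In Experiment 1 alone (9 libraries) the median was 0.26, and in Experiment 2 alone 0.40.

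The strongest pair, at r of 0.86, joined GB54724 and the unnamed gene at 165 CPM, and the next ones included the unnamed genes at 9.01 and 18.7 CPM, which went together at 0.82. GB54724 went with the U8-agatoxin-Ao1a-like gene at r of 0.83 and with the transporter gene at 0.80, and the prefoldin RPB5 interactor gene with the U8-agatoxin-Ao1a-like gene at 0.75. The phosphatase gene and THEM6 varied together at 0.70, and the receptor gene and the transporter gene at 0.67. Against the TMM factor of the library the r of the 18 genes was −0.77 to 0.50 with a median of −0.29, where the median of all genes was 0.06. The part of the scaling in the pairs was not tested.

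**Figure D5:**
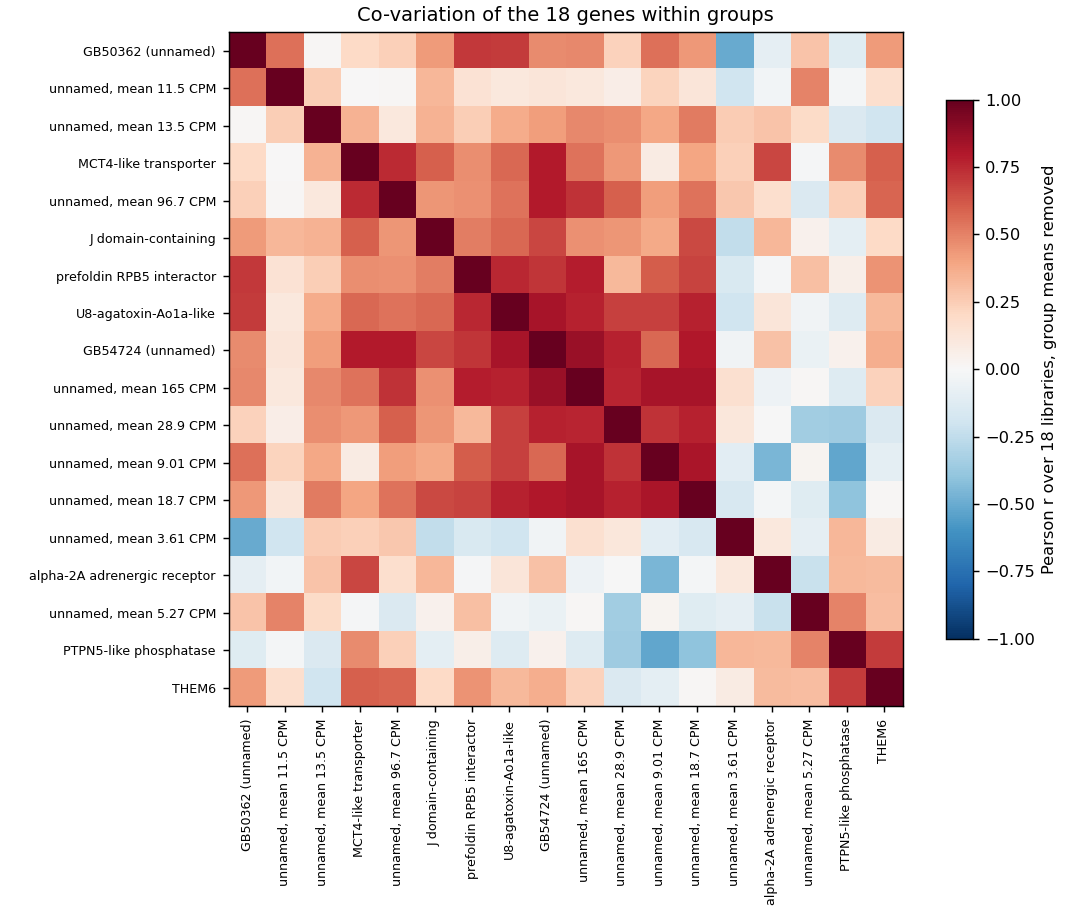
Pearson r between the 18 genes over 18 libraries, after the mean of each group was removed, from −1 (blue) to 1 (red), with the genes ordered by average-linkage clustering. A mostly red block joins 10 genes in the middle, from the transporter gene to the unnamed gene at 18.7 CPM, and the receptor, phosphatase and THEM6 genes lie outside it.

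The same deviations were set beside the summed level of the 4 photoreceptor markers. Over the 18 libraries the r was 0.72 for the transporter gene (Spearman's rho 0.73), 0.65 for the phosphatase gene (rho 0.75), 0.60 for the receptor gene (rho 0.53) and 0.46 for THEM6 (rho 0.67), and the median over the 18 genes was 0.07. Without the 2 libraries farthest from the median of the marker sum, these became 0.69, 0.76, 0.30 and 0.68, in the same order. Within Experiment 1 they were 0.68, 0.78, 0.18 and 0.83 and within Experiment 2 0.76, 0.67, 0.87 and 0.23. The J domain-containing gene had an r of 0.30, the U8-agatoxin-Ao1a-like gene 0.06 and GB50362 −0.19. The transporter and phosphatase genes thus varied with the photoreceptor markers inside the groups in both experiments, the receptor gene mainly in Experiment 2 and THEM6 mainly in Experiment 1, and the part of those markers in the rise of these genes was not tested.

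By function, among genes that carry a name here, the 18 hold the 1 gene found for neurotransmitter receptors (the alpha-2A adrenergic receptor), 1 of 2 membrane transporters and 1 of 3 kinases and phosphatases. The lists for cell adhesion (5 genes), neuropeptides and their receptors (2 genes) and transcription factors (2 genes) held only genes that were set aside beforehand, so none of them could be among the 18. These names cover only the study's own tables, which were chosen on these samples, so the shares say nothing about the other gene models.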

How the data were processed

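RNA-seq of 18 pooled brain libraries was used. The authors trimmed single-end reads with Trimmomatic, removed ribosomal reads with SortMeRNA, aligned them with STAR 2.4.2a to assembly 4.5 with gene set OGS v3.2, and deposited raw counts per gene from htseq-count, whose strand and overlap settings are not given in the sources used here. Overlapping and antisense genes are therefore uncertain. Unassigned reads (27.9% to 31.2% of each file) were left out. Total counts were 26636844 to 51745752 per library.

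CPM used the gene total. Tests used edgeR 4.0.16 in R 4.3.3 (quasi-likelihood, TMM, group as the only term; 9 libraries of an experiment, or all 18 between experiments), for genes that reached 10 counts in 3 or more libraries, with Benjamini-Hochberg adjusted p under 0.1, the authors' false discovery rate. DESeq2 1.42.0 and limma 3.58.1 served as alternatives. Libraries were separate pools, from queens of 1 source colony. On counts simulated for seminal fluid against semen, 93% of genes changed 3-fold and 19% of those changed 1.5-fold were called in Experiment 1 (11761 genes), and 90% and 42% in Experiment 2 (11899 genes). The members and lists were chosen with earlier results of these data known. Genes were named by size of rise, level, presence in the study's list, call or nearness to the rule, and no more than 2 identifiers without a name are given for genes that rose. Of the identifiers, 0 matched the RefSeq table, so that planned promoter and protein descriptions were not made and names come from the study's tables.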

Additional observations from a re-analysis of the deposited data

How the results depend on the processing

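The number of genes meeting the rule depended on the scaling. It was 18 with library totals, 58 with TMM-scaled CPM, 59 with DESeq2 size factors and 67 with upper quartile scaling, which kept 15, 15 and 16 of the 18. It was 27 without the most abundant gene, 24 without a floor, 16 at a floor of 5 CPM and 16 (13 of the 18) with counts thinned to the smallest library. Of the 18, 11 stayed under the 4 scalings and the thinning. Among the 7 lost were THEM6 and the alpha-2A adrenergic receptor gene, each lost only with the thinned counts. The others lost are unnamed. Leaving out 1 library gave 18 to 39 genes, with 36 without mock library A, 31 without the Experiment 1 seminal fluid library A, 39 without saline library C and 35 without the Experiment 2 seminal fluid library C.

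For seminal fluid against semen, DESeq2 called 1 gene in Experiment 1 and 831 in Experiment 2. In Experiment 2, edgeR called 1201 genes with only the 6 libraries compared, 0 with all 18 libraries and 0 with library totals, an alternative chosen after seeing the data, which also gave 0 for the difference of the rise; none of the 18 was among any of these. Leaving out 1 library gave 0 to 1 genes in Experiment 1, 0 to 747 in Experiment 2 (747 without saline library C and 92 without semen library B), 0 to 2 for the difference of the rise, 8012 to 8452 between inseminated libraries and 4835 to 6350 between controls. The causes were not tested.

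With the letters A, B and C as a replicate block, edgeR called 4 genes for seminal fluid against semen in Experiment 2, 2 for the difference of the rise (none of the 18 in either) and 3558 for saline against mock insemination (8 of the 18, against 10 of 6089 without it). Same-letter libraries of an experiment had correlations of −0.27 to 0.23, over 0.1 in 5 of 18 pairs. Libraries of different letters were not set beside them, so whether the letters pair the libraries was not tested.

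Fold changes against controls were recomputed for 9 of the genes. The rule used these contrasts to choose the genes, so nothing can be read from a kept sign. Of 432 values, 430 moved by less than their spread and none turned sign. The others were the phosphatase gene with seminal fluid in Experiment 1 without library C, and the U8-agatoxin-Ao1a-like gene with semen in Experiment 2 without library C, both at 0.60. Depth limits GB50362 most, at 18 to 154 counts per library.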
